A study of Mus musculus with 6 samples.

Results

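Premalignant pre-B cells of Eµ-Myc mice held 29 genes at 1.5 times or more the level of every wild-type and every malignant library. They are out of 9734 autosomal protein-coding genes that passed the same minimum level. Levels are given in CPM, that is, reads counted on a gene over all reads counted in that library, times 1e6. The 29 genes were chosen by their CPM in these libraries: each had at least 2 CPM in both premalignant libraries, and its lower premalignant value was at least 1.5 times its highest value in the 4 wild-type and malignant libraries. The files counted 37991 genes, of which 21377 were autosomal and protein-coding. Because the rule used the premalignant libraries against both other stages, those differences are a description, and no test of them is used as support. The difference between malignant and wild-type cells was not part of the rule, although the rule set an upper limit on both, and it was tested.

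Pre-B cells are B-cell progenitors of the bone marrow that have rearranged an immunoglobulin heavy chain and are about to rearrange a light chain. In Eµ-Myc mice an immunoglobulin enhancer drives Myc in B-lineage cells, so that progenitors grow and divide in excess for weeks before a lymphoma appears. The Myc protein binds E-box sequences in promoters and raises the expression of genes for cell growth.

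Cells of high B220 and low IgM and IgD were sorted from bone marrow of C57BL/6 mice, and 2 libraries of polyadenylated RNA were made at each of 3 stages. Wild-type mice were littermates without the transgene and 4 to 6 weeks old. Premalignant mice carried 1 copy of the transgene (E{mu}Myc/+) and had the same age, while malignant mice of that genotype had spontaneous lymphoma at 10 to 20 weeks, so that age and malignancy cannot be told apart. The methods describe the sorted wild-type and premalignant cells as pro-B and pre-B cells together, which are called pre-B cells here. They describe the malignant cells as transformed pre-B cells negative for IgM and IgD. The wild-type and premalignant mice were female and the malignant mice of both sexes. Counts per library lay between 30031100 and 53453055, and replicate 1 was the deeper library at every stage. Wild-type libraries held Myc itself at 37.7 and 46.7 CPM, against 1143 and 1110 in premalignant and 1562 and 1466 in malignant libraries, which sets the labelled genotypes apart. The 8 markers listed for small pre-B cells summed to 2170 and 2129 CPM in premalignant, 6749 and 6841 in wild-type and 1322 and 1108 in malignant libraries. In edgeR, 0 of them were called higher and 7 lower in premalignant than wild-type cells, where 19% of all genes tested were higher and 20.3% lower. Their detection does not identify the cells, since all 12 markers listed for neutrophils and their precursors also had reads in premalignant cells.

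Few genes followed this pattern compared with the patterns in which another stage stood highest. By the same rule, 2052 of 10329 genes (19.9%) peaked in wild-type cells and 277 of 9338 (2.97%) in malignant cells, against 29 of 9734 (0.298%) in premalignant cells. Over TMM-normalized library sizes in place of total counts, the numbers were 1452 (14.2%), 370 (3.93%) and 37 (0.379%) in the same order. Among eligible genes the median ratio of the lower premalignant value to the highest other value was 0.696, and 948 genes (9.74%) had a ratio of at least 1. The 29 chosen genes had ratios from 1.51 to 2.82 with a median of 1.799. Just inside the limit lay 2410018M08Rik at 1.52, Zfp599 at 1.51 and Nek8 at 1.51, and just outside lay Ncs1, whose ratio was less than 0.01 below the limit, Tfpi at 1.49 and Zfp428 at 1.49. The distribution of the ratio had no gap at the limit.

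**Figure D1:**
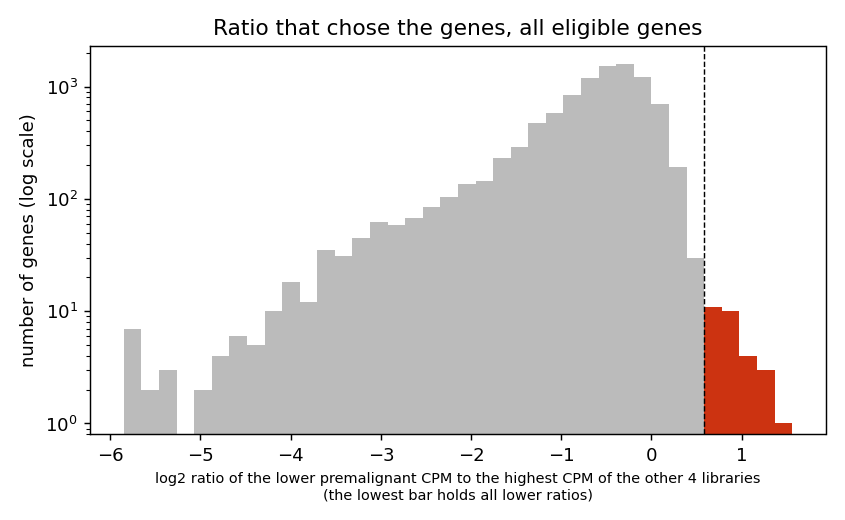
Number of genes (log axis) by the log2 ratio of the lower premalignant CPM to the highest CPM of the 4 wild-type and malignant libraries, for 9734 eligible genes. The dashed line marks the ratio of 1.5 and the red bars are the 29 chosen genes, which continue the upper tail of the distribution.

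The chosen genes were expressed at low levels. Their mean premalignant level ranged from 2.35 to 49.6 CPM with a median of 5.19, against 41.0 CPM for the median eligible gene, and 15 of the 29 were under 5 CPM in the lower premalignant library. Per length the median was 1.24 RPKM (CPM per kilobase of exon) against 10.9 for eligible genes, at a similar exon length of 3927 and 3789 bp. The highest levels per length in premalignant cells were those of Nme4 at 21.2 RPKM, Syce2 at 11.2, Plcd3 at 9.26, Mex3a at 8.56 and Serf1 at 7.53. The lowest was that of Ranbp17 at 0.430 RPKM. At these depths the lowest count behind a lower premalignant value was 72 reads, and for Mcoln3 and 2410018M08Rik the 95% exact Poisson intervals of the lower premalignant and the highest other value overlapped. These intervals cover counting error only, and because the rule chose the genes on the same values, their position in the other genes is no support. In sorted bulk cells, fewer cells of a type and less RNA per cell cannot be told apart.

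**Figure D2:**
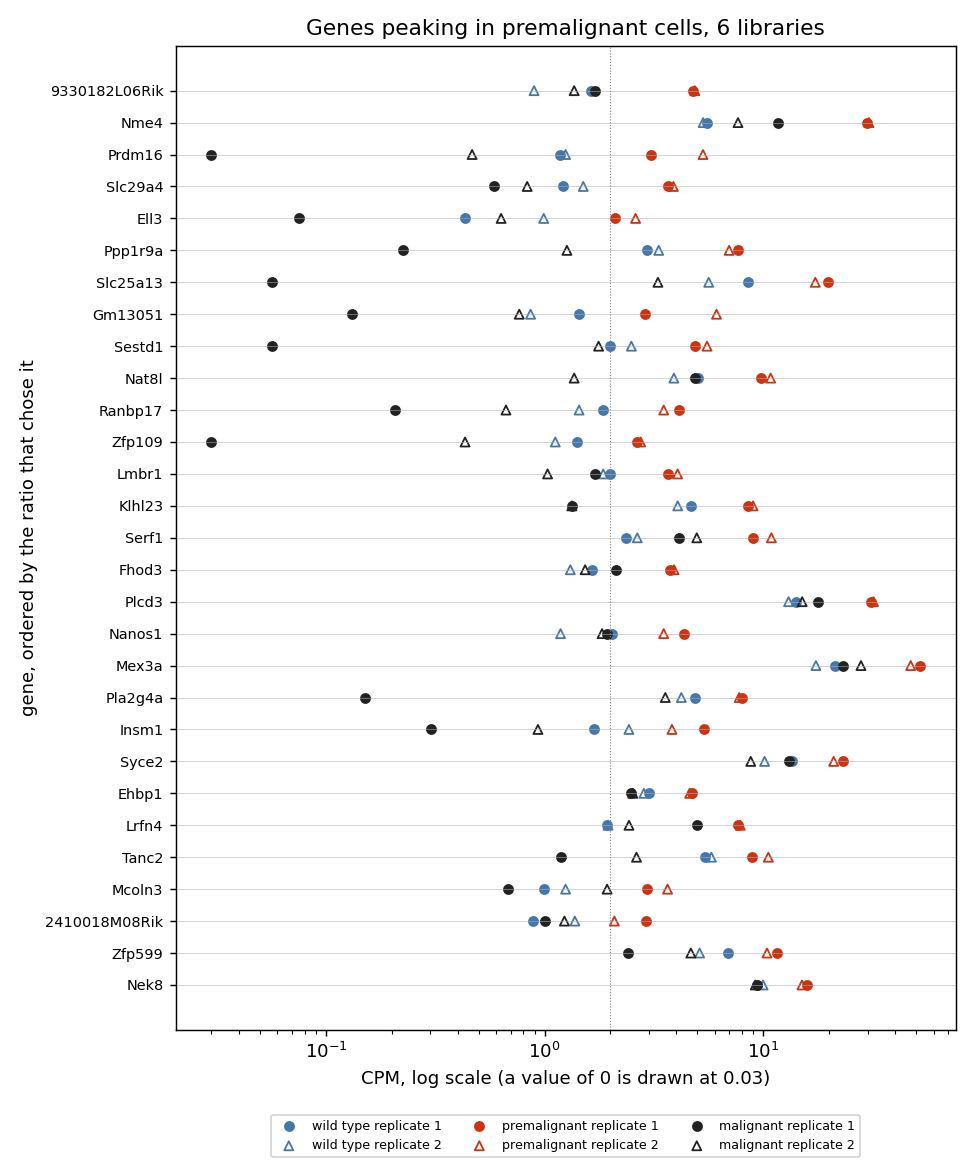
CPM (log axis) of each of the 29 genes in the 6 libraries, with genes ordered by the ratio that chose them and the dotted line at 2 CPM. Both premalignant values (red) lie to the right of all others in every gene because the rule required it, and malignant replicate 1 (filled black) is far to the left in Prdm16, Slc25a13, Sestd1 and Zfp109.

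Promoter windows of the chosen genes are of interest because Myc binds the E-box CACGTG. RefSeq promoter windows on GRCm38.p6, each from 250 bases before to 50 after a start, were matched for 25 genes, of which 3 had a newer symbol (9330182L06Rik as Elapor2, Gm13051 as Zfp987 and 2410018M08Rik as Zbed5). Nat8l, Fhod3, Insm1 and Zfp599 were not matched. CACGTG, which reads the same on both strands, occurred in 4 of 30 windows (13.3%) and in 7.84% of 21262 windows of protein-coding genes. The windows that hold it are shown 5′ to 3′ on the strand of the gene, with CACGTG in capitals. They are chr6:4903061-4903360 (plus strand) for Ppp1r9a, chr6:6217124-6217423 (minus strand) for Slc25a13, chr8:84872008-84872307 (plus strand) for Syce2 and chr19:4615618-4615917 (minus strand) for Lrfn4.
Ppp1r9a: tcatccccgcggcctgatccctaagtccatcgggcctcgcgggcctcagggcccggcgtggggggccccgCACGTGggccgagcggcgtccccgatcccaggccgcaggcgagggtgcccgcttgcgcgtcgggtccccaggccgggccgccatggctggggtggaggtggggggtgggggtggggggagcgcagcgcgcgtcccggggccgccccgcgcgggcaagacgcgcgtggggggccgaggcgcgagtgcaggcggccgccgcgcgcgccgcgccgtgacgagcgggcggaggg
Slc25a13: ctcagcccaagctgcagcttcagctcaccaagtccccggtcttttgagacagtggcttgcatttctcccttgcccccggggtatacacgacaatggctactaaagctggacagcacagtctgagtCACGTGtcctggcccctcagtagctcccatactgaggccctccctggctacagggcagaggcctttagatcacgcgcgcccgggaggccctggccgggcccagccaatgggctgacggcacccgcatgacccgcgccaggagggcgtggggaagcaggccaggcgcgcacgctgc
Syce2: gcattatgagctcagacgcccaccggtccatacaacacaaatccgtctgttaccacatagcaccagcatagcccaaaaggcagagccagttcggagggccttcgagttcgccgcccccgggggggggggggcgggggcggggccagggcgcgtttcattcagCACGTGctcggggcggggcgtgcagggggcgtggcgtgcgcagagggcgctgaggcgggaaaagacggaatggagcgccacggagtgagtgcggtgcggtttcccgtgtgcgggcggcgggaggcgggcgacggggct
Lrfn4: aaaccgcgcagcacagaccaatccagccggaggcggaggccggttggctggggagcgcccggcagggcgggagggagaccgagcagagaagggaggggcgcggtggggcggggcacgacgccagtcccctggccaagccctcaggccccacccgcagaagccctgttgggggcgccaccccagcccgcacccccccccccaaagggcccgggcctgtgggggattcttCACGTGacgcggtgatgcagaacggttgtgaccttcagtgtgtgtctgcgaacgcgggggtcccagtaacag
The match began at position −180 from the start in Ppp1r9a, −125 in Slc25a13, −88 in Syce2 and −22 in Lrfn4. In Slc25a13 the AP-1 letters TGACTCA, read on the other strand, overlapped the beginning of the E-box. A match of letters is a description and not a bound site.

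The other strings searched on both strands are those of factors of early B cells, of the cell cycle and of stress responses, and common core promoter elements. CCAAT occurred in 36.7% against 38.2%, TATAAA in 10.0% against 12.6% and the E2A-type E-box CAGCTG in 20.0% against 15.6%. The Ebf1-type CCCNNGGG was found in 23.3% against 15.6%, the Runx letters TGTGGTT in 10.0% against 4.71% and the PU.1 letters GAGGAAGT in 10.0% against 3.13%. The E2F letters TTTCCCGC were in 2 windows, those of Mex3a and Syce2 (6.67% against 1.41%). The Ets letters CCGGAAG occurred in 1 window, that of Serf1 (3.33% against 11.6%), TGACTCA in 3.33% against 4.66% and GAAANNGAA in 6.67% against 8.14%. AGATAA, TGACGTCA, GGGACTTTC and TGATGCAA were in 0 of the 30 windows, and in 9.65%, 2.23%, 0.357% and 0.865% of all windows. The median GC content was 62.7% in the windows of the chosen genes and 56.3% in all windows. With 30 windows, 1 window is 3.33%.

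Some genes have roles in metabolism and transport. Nme4, on chromosome 17, encodes the nucleoside diphosphate kinase of mitochondria. Nme4 was at 5.54 and 5.31 CPM in wild type, 29.8 and 30.4 in premalignant and 11.7 and 7.66 in malignant libraries. The wild-type and malignant values of Nme4 did not overlap, while the rule set the premalignant values apart in every chosen gene. The premalignant mean of Nme4 was 5.54 times that of wild type, the largest such ratio of the 29 genes, and 3.11 times that of malignant cells. Slc25a13, on chromosome 6, encodes citrin, which carries aspartate and glutamate across the inner mitochondrial membrane. Slc25a13 was at 8.54 and 5.63 CPM in wild type, 19.8 and 17.3 in premalignant and 0.0566 and 3.30 in malignant libraries, and the lowest value rests on 3 reads. Slc29a4, a transporter of monoamines and nucleosides at the cell surface, was at 1.21 and 1.502 CPM in wild type, 3.67 and 3.88 in premalignant and 0.585 and 0.833 in malignant libraries. Nat8l, which makes N-acetylaspartate, was at 5.03 and 3.90 CPM, then 9.75 and 10.8, then 4.89 and 1.36 in the same order. The malignant values of Nat8l spanned from below both wild-type values to between them, while those of Slc29a4 lay below both.

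Other genes act on phospholipids or in signalling. Plcd3, a phospholipase C that cleaves phosphoinositides, was at 14.1 and 13.0 CPM in wild type, 31.0 and 31.9 in premalignant and 17.8 and 15.1 in malignant libraries. Its replicates were close at each stage, and the wild-type and malignant values did not overlap. Pla2g4a, the cytosolic phospholipase A2 that releases arachidonic acid, was at 4.88 and 4.22 CPM in wild type, 8.03 and 7.76 in premalignant and 0.151 and 3.56 in malignant libraries, with a wide gap between the malignant replicates. Sestd1, a protein with a lipid-binding and spectrin-type domain, was at 2.00 and 2.49 CPM, then 4.84 and 5.53, then 0.0566 and 1.76, and its lowest value rests on 3 reads. Nek8 encodes a kinase of the primary cilium. It was at 9.38 and 9.97 CPM in wild type, 15.8 and 15.0 in premalignant and 9.38 and 9.19 in malignant libraries, so that wild-type and malignant cells were nearly level. Mcoln3, a cation channel of endosomes and lysosomes, was at 0.999 and 1.247 CPM, then 2.94 and 3.65, then 0.679 and 1.93, and its malignant values lay on either side of the wild-type pair.

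Regulators of transcription and of RNA were also present. Mex3a, an RNA-binding protein with KH domains, had the highest CPM of all 29 genes. It was at 21.3 and 17.4 CPM in wild type, 52.0 and 47.2 in premalignant and 23.1 and 27.9 in malignant libraries. The wild-type and malignant values of Mex3a did not overlap. Nanos1, a translational repressor known from germ cells, was at 2.04 and 1.18 CPM, then 4.32 and 3.50, then 1.93 and 1.83 in wild-type, premalignant and malignant libraries. The wild-type and malignant values of Nanos1 overlapped. Prdm16 encodes a zinc finger factor of haematopoietic stem cells and brown fat. Its CPM was 1.18 and 1.247 in wild type, 3.05 and 5.30 in premalignant and 0 and 0.466 in malignant libraries, where the count of 0 allows a level of up to 0.0566 CPM. The ratio of the premalignant to the malignant mean of Prdm16 was 17.9, the largest of the set. Insm1, a zinc finger factor of neuroendocrine cells, was at 1.68 and 2.43 CPM, then 5.35 and 3.82, then 0.302 and 0.932. Ell3, of the ELL family of elongation factors for RNA polymerase II, was at 0.431 and 0.991 CPM, then 2.10 and 2.60, then 0.0755 and 0.633, and was the only chosen gene whose wild-type replicates differed more than 2-fold.

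Zinc finger genes named by number were also present. Zfp109 was at 1.41 and 1.12 CPM in wild type, 2.64 and 2.75 in premalignant and 0 and 0.433 in malignant libraries, again with a limit of 0.0566 CPM for the count of 0. Zfp599 was at 6.87 and 5.11 CPM, then 11.6 and 10.4, then 2.42 and 4.66. Both had malignant values below both wild-type values. Gm13051, a zinc finger gene of a family of close copies on chromosome 4, was at 1.43 and 0.863 CPM, then 2.88 and 6.11, then 0.132 and 0.766. Its reads could have been split between copies in the counting, and its premalignant replicates differed 2.12-fold, more than those of any other chosen gene. 2410018M08Rik was at 0.881 and 1.38 CPM, then 2.90 and 2.08, then 1.00 and 1.23, with wild-type and malignant values that overlapped.

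Genes for the cytoskeleton, scaffolds and adhesion, several of them known from neurons or muscle, were also present. Ppp1r9a, on chromosome 6, encodes neurabin, which binds actin and protein phosphatase 1. Ppp1r9a was at 2.94 and 3.32 CPM in wild type, 7.65 and 6.98 in premalignant and 0.226 and 1.26 in malignant libraries, so that malignant cells held the lowest values. Tanc2, a scaffold protein of synapses, was at 5.41 and 5.79 CPM, then 8.85 and 10.5, then 1.19 and 2.63, in the same order of stages. Lrfn4, a leucine-rich repeat adhesion protein of synapses, had the opposite order of the outer stages, with 1.92 and 1.95 CPM in wild type, 7.65 and 7.84 in premalignant and 5.0 and 2.43 in malignant libraries. Fhod3 is a formin that assembles actin filaments in muscle. It was at 1.65 and 1.31 CPM, then 3.74 and 3.91, then 2.11 and 1.53. Ehbp1, which links endocytosis to actin, was at 2.996 and 2.85 CPM, then 4.71 and 4.60, then 2.47 and 2.53, and its difference from wild type was, with that of Nek8, the smallest at a ratio of means of 1.59.

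The remaining genes have varied roles. Klhl23, of the Kelch-like family of ubiquitin ligase adaptors, was at 4.66 and 4.06 CPM in wild type, 8.47 and 8.97 in premalignant and 1.34 and 1.33 in malignant libraries. Its replicates were close, and its wild-type and malignant values did not overlap. Ranbp17, of the importin-beta family of nuclear transport receptors, was at 1.84 and 1.44 CPM, then 4.10 and 3.50, then 0.208 and 0.666. Both genes had their lowest values in malignant cells. Serf1, a small protein of the SERF family, was at 2.35 and 2.65 CPM, then 8.92 and 10.9, then 4.11 and 4.96, so that its malignant values lay above both wild-type values. Syce2 encodes a part of the synaptonemal complex of meiosis. It was at 13.5 and 10.1 CPM in wild type, 23.0 and 21.0 in premalignant and 13.1 and 8.76 in malignant libraries. Lmbr1, a membrane protein gene whose intron holds a limb enhancer of Shh, was at 2.00 and 1.85 CPM, then 3.67 and 4.05, then 1.70 and 1.03. 9330182L06Rik had the highest ratio of the rule, 2.82, with 1.62 and 0.895 CPM in wild type, 4.79 and 4.86 in premalignant and 1.70 and 1.36 in malignant libraries.

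Across the set, the premalignant mean was 1.59 to 5.54 times that of wild type (median 2.32) and 1.66 to 17.9 times that of malignant cells (median 3.15). The ratio to malignant cells was the larger one in 20 of 29 genes, although the library that came closest to the premalignant values was a wild-type library in 21 genes and a malignant library in 8. Applied to the contrasts that chose the genes, edgeR's quasi-likelihood test (adjusted p of at most 0.1 and absolute log2 fold change of at least 0.5) called 7 genes higher than in both other stages, Nme4, Slc29a4, Ranbp17, Klhl23, Plcd3, Mex3a and Zfp599, where 0.15% of 16683 genes tested met both calls. This count is void as evidence, since the same values chose the genes, and it only names those whose differences were large beside the spread of the replicates.

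Malignant against wild-type cells asked on which side of the wild-type level the genes stood in the lymphoma. Calls went both ways in near equal shares, as they did over all genes tested. Of the 29 genes, 5 rose and 5 fell between wild-type and malignant cells, while 19 were not called. Lrfn4, Serf1, Nme4, Mex3a and Plcd3 were higher in malignant than wild-type cells, by 0.57 to 1.248 on the log2 scale. Ppp1r9a, Ranbp17, Insm1, Klhl23 and Tanc2 were lower, from −1.83 to −1.27. The 10 called genes are 34.5% of the set, whereas 49.2% of the 16683 genes tested were called, 24.9% higher and 24.3% lower. The set had a lower median premalignant level than eligible genes (5.19 against 41.0 CPM), and its share was not compared with genes of similar level. The median log2 fold change was −0.20 in the set and −0.02 over all genes tested. All 29 genes passed edgeR's filter on low counts, to which the premalignant libraries contributed. The direction split depended on the scaling. With total counts in place of TMM normalization, which moved the median of all genes to −0.315 and the share of higher calls among all calls from 50.6% to 35.5%, 2 genes of the set were called higher (Nme4 and Serf1) and 6 lower, Slc29a4 in addition.

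Nme4 and Klhl23 kept their call under all 15 other settings tried. Ranges of adjusted p are given over the 14 settings that use edgeR. For Nme4 the rise was 1.14 in log2 units (standard error 0.27, edgeR adjusted p = 0.0164, 2 libraries a stage), and the adjusted p over these settings lay between 0.000695 and 0.0961. Klhl23 fell with −1.41 (0.29, adjusted p = 0.0110, edgeR), and its range was 0.00502 to 0.0577. Serf1 rose with 1.15 (0.29, adjusted p = 0.0213, edgeR), and lost its call only without wild type replicate 1 (adjusted p = 0.105, range 0.00923 to 0.105). Mex3a rose with 0.69 (0.18, adjusted p = 0.0238, edgeR). It was not called without wild type replicate 2 (adjusted p = 0.124) or with total counts (adjusted p = 0.128), and its range was 0.0103 to 0.128. The malignant levels of Nme4, Serf1 and Mex3a thus stood above that of wild-type cells, and that of Klhl23 stood below it. All were below the premalignant level, which the rule required of every chosen gene.

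The other 6 calls were less stable. Tanc2 fell with −1.27 (standard error 0.42, adjusted p = 0.0492, edgeR), Ranbp17 with −1.67 (0.57, adjusted p = 0.0566) and Ppp1r9a with −1.83 (0.71, adjusted p = 0.0828), and each was not called without either wild-type or either premalignant library. Without one of these 4 libraries the adjusted p was 0.104 to 0.171 for Tanc2, 0.109 to 0.201 for Ranbp17 and 0.140 to 0.237 for Ppp1r9a. Insm1 fell with −1.48 (0.58, adjusted p = 0.0834, edgeR) and Lrfn4 rose with 1.248 (0.42, adjusted p = 0.0529). These 2 genes were also lost without malignant replicate 1, with an adjusted p of 0.138 to 0.289 for Insm1 and 0.109 to 0.189 for Lrfn4 without one of the 5 libraries. Plcd3 rose with 0.57 (0.19, adjusted p = 0.0486, edgeR), near the fold change limit, and was not called in 10 of the 15 settings. Among these were fits without either wild-type or either premalignant library (adjusted p from 0.112 to 0.198) and without malignant replicate 1 (log2 fold change 0.43). Over the edgeR settings the lowest adjusted p, in each case without malignant replicate 2, was 0.00212 for Tanc2, 0.00403 for Ranbp17, 0.000566 for Ppp1r9a, 0.00666 for Insm1, 0.00192 for Lrfn4 and 0.0105 for Plcd3, and the highest was 0.256 for Plcd3, with total counts, and 0.289 for Insm1, without wild type replicate 2.

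**Figure D3:**
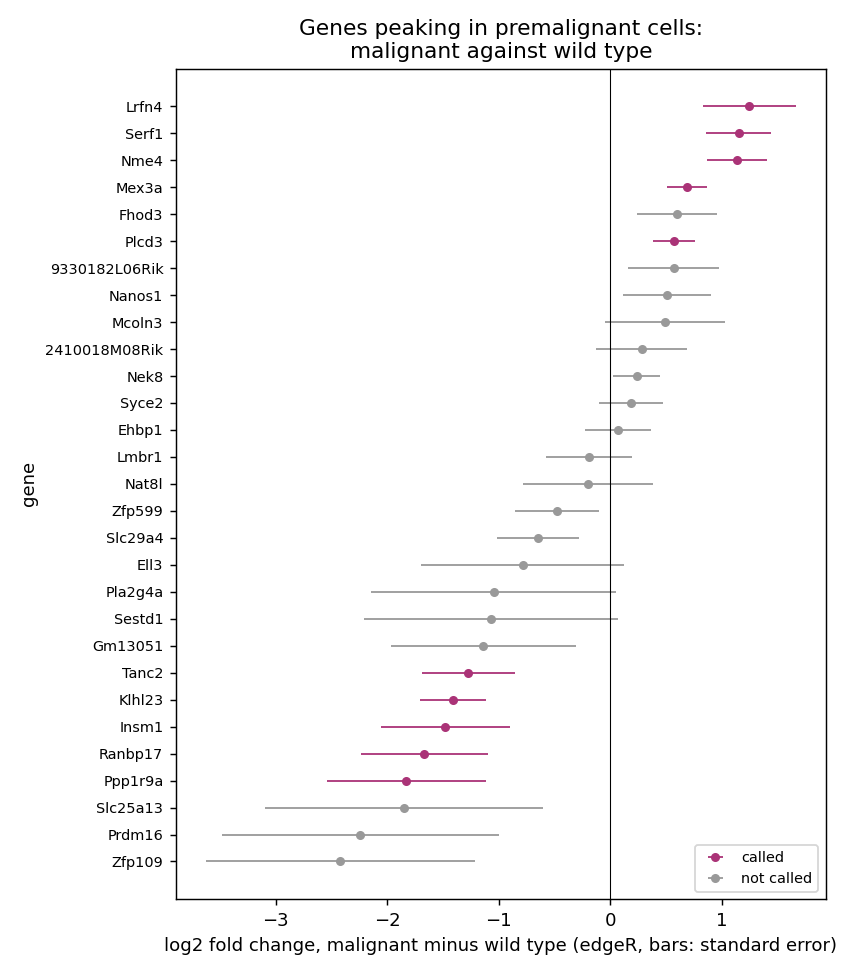
Log2 fold change of malignant minus wild-type cells for the 29 genes from edgeR with TMM normalization, with bars of 1 standard error and called genes in purple. The values run from −2.42 in Zfp109 to 1.248 in Lrfn4, and the lowest 3 genes have wide bars and were not called. With total counts instead, Ehbp1, Syce2, Nek8 and 2410018M08Rik fall below 0 and Lrfn4, Mex3a and Plcd3 are no longer called.

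The order of the CPM values, which uses total counts as the scale, gave more genes below wild type than the fit did. Both malignant values were below both wild-type values in 16 of the 29 genes, where 44.2% of eligible genes had this order, and above them in 5, where 31% did. In the other 8 the 2 stages overlapped. Within replicate 1 and within replicate 2, which were the deeper and the shallower library of each stage, malignant cells stood on the same side of wild type in 26 of the 29 genes (80.5% of eligible genes). Among the 16 genes with both malignant values lower are Nek8 and Ehbp1, whose fitted log2 fold changes with TMM were 0.24 and 0.07 and not called. The 5 genes with both malignant values higher were Nme4, Serf1, Plcd3, Mex3a and Lrfn4.

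The malignant replicates differed much more than the others. Both premalignant libraries agreed within 2-fold in every chosen gene but Gm13051, with a median of 1.105-fold, and the wild-type libraries in every gene but Ell3. Among eligible genes, the premalignant libraries differed by more than 2-fold in 0.40% and the wild-type libraries in 1.38%. The malignant libraries differed by more than 2-fold in 14 of the 29 genes, against 10.4% of eligible genes, and by more than 4-fold or with a count of 0 in 8, against 3.41%. Eligible genes had a higher median premalignant level (41.0 against 5.19 CPM), and genes of similar level were not compared. The rule asked for a high value in both premalignant libraries and set only an upper limit on malignant values, so these shares are a description. The malignant value was lower in replicate 1 than in replicate 2 in 18 genes, where 55.5% of eligible genes had this order. Slc25a13 differed 58.2-fold between the malignant replicates, Sestd1 31.2-fold and Pla2g4a 23.6-fold. Their log2 fold changes from wild type, −1.85 with a standard error of 1.251, −1.07 with 1.14 and −1.04 with 1.10, were not called (edgeR adjusted p = 0.278, 0.491 and 0.487). With malignant replicate 2 left out, the malignant stage is 1 library, which the fit assumes to vary like the other stages, and in it Slc25a13 and Sestd1 rest on 3 reads. In that fit these 3 genes were called at −6.57, −4.90 and −4.55 (adjusted p = 0.000189, 0.000497 and 0.000232). Without malignant replicate 1 Slc25a13 was called at −0.83 (adjusted p = 0.0698), while Sestd1 and Pla2g4a were not called. Over the edgeR settings the adjusted p ranged from 1.37e-05 to 0.544 for Slc25a13, from 0.000497 to 0.899 for Sestd1 and from 0.000232 to 0.846 for Pla2g4a. Prdm16 and Zfp109, with a count of 0 in malignant replicate 1, were not called either (−2.24 and −2.42, adjusted p = 0.193 and 0.155). With the same assumption, the calls in the set depended on which malignant replicate was left out. Without malignant replicate 2 the log2 fold change was −2.82 for Ell3, −8.58 for Prdm16 and −8.65 for Zfp109. Without malignant replicate 1 it was 0.15, −1.09 and −1.265 in the same order.

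**Figure D4:**
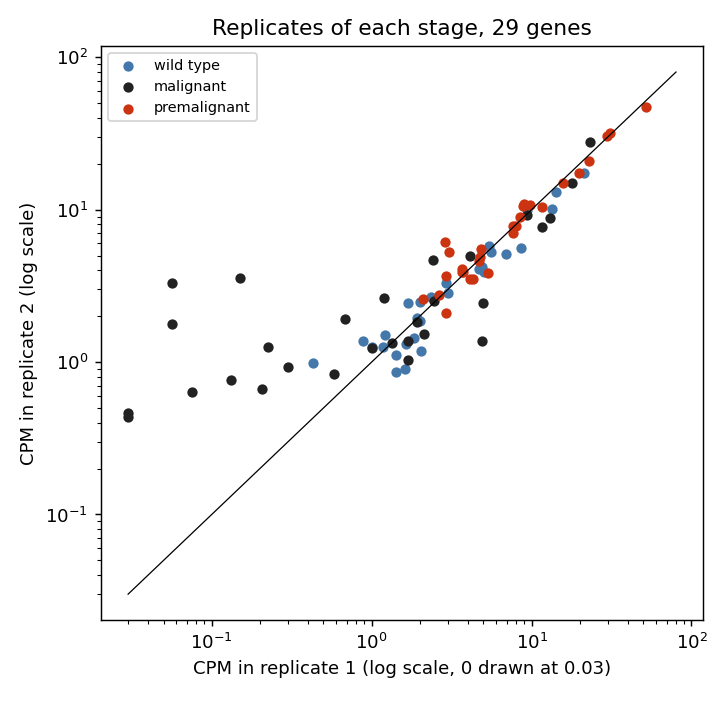
CPM of the 29 genes in replicate 1 against replicate 2 of each stage, both on log axes with 0 drawn at 0.03, with the line of equal values. Premalignant (red) and wild-type (blue) points lie near the line, while a series of malignant points (black) lies above it at less than 1 CPM in replicate 1.

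Lists of pathways and cell types showed how their genes stood to the pattern. Of 413 eligible genes in 18 lists of functions, 0 were chosen, and of 71 eligible markers in 17 lists of cell types, 0 were, which at a share of 0.298% over all eligible genes is near the background. The list of mitosis and spindle genes came closest to the pattern, with a median ratio of 1.00 and a highest ratio of 1.31 in Plk1, a kinase of mitotic entry. Of its 33 genes, 13 were called higher and 0 lower in premalignant than wild-type cells, where 19% of all genes were higher and 20.3% lower, and 0 were called either way against malignant cells. The G1/S and replication list had a median ratio of 0.883 and a highest ratio of 1.27 in Pcna, the sliding clamp of DNA polymerases. All 40 genes of the ribosome biogenesis list were called higher in premalignant than wild-type cells, with a median ratio of 0.768. Against malignant cells 0 were higher and 1 was lower, where 2.45% and 3.73% of all genes were. Interferon-stimulated genes and NF-kB targets were far from the pattern, with median ratios of 0.260 and 0.132. The nearest p53 target was Ddb2, a DNA damage binding protein, at a ratio of 1.22.

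Of the 17 lists of cell type markers, 0 had their highest summed CPM in premalignant cells. Markers of neutrophils and their precursors summed to 1302 and 3245 CPM in wild type, 371 and 366 in premalignant and 82.2 and 138 in malignant libraries. Markers of natural killer cells summed to 363 and 116 CPM, then 16.4 and 4.55, then 4.00 and 6.33. Markers of immature and mature B cells summed to 1111 and 1492 CPM, then 1934 and 2080, then 2075 and 3978, and those of pro-B and early pre-B cells to 2815 and 2779, then 659 and 605, then 386 and 609. From wild-type to premalignant cells the mature sum thus rose and the early sum fell, while premalignant and malignant sums overlapped in both lists. Of the 11 mature markers, 4 were called higher and 3 lower in premalignant than wild-type cells, so that single markers went both ways. Cd74 had the highest premalignant level of that list. Of the 10 early markers, 0 were called higher and 9 lower. Over all genes tested, 19% were called higher and 20.3% lower. The part of either list in the values of the chosen genes was not tested.

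By gene name, solute carriers were 2 of the 29 genes (6.90%, Slc25a13 and Slc29a4) and 1.65% of eligible genes. Phospholipid and sphingolipid enzymes were likewise 2 (Plcd3 and Pla2g4a, 6.90% against 0.380%), and C2H2 zinc finger genes by name were 2 (Zfp109 and Zfp599, 6.90% against 3.21%). The symbols of Gm13051, Prdm16 and Insm1, described above as zinc finger genes or factors, were not counted there. Klhl23 was the only ubiquitin-related gene by name (3.45% against 2.35%). The other 13 name families, among them 165 eligible ribosomal protein genes and 36 ion channels by name, held 0 of the chosen genes by symbol. Symbols miss some genes. Mcoln3 and Lrfn4, described above as a cation channel and a leucine-rich repeat protein, were not counted in the families of that kind.

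Paralogs of the chosen genes show how close relatives stood at the 3 stages. Of 35 paralogs, listed after the chosen genes were known, 26 were tested. Of these, 8 were called higher and 5 lower in premalignant than wild-type cells (edgeR, against 19% and 20.3% of all genes), and against malignant cells 0 were higher and 1 was lower (against 2.45% and 3.73%). Nme1, the cytosolic nucleoside diphosphate kinase, was at 43.4 and 37.0 CPM in wild type, 157 and 161 in premalignant and 141 and 127 in malignant libraries. Like Nme4, Nme1 was higher in premalignant than wild-type cells, but its malignant values stayed near the premalignant ones. Nme2 was at 16.8 and 17.4 CPM, then 65.7 and 68.2, then 77.0 and 58.8, and its premalignant and malignant values overlapped. Slc29a2, a nucleoside transporter of the family of Slc29a4, was at 1.74 and 2.53 CPM, then 11.7 and 10.7, then 11.2 and 11.2. Slc29a3, the lysosomal member, went the other way, with 48.4 and 52.3 CPM in wild type, 22.9 and 25.2 in premalignant and 27.8 and 46.4 in malignant libraries. Ppp1r9b, which encodes spinophilin, the paralog of neurabin, was at 115 and 131 CPM, then 17.3 and 18.96, then 10.6 and 33.4, and so was highest in wild-type cells. Mcoln2 was highest in malignant cells, with 36.7 and 48.4 CPM, then 57.5 and 67.1, then 120 and 149. Slc25a12, the other aspartate and glutamate carrier, was at 49.8 and 37.4 CPM, then 26.8 and 29.8, then 36.3 and 33.4. Its order in wild-type and premalignant cells was opposite to that of Slc25a13, but its difference was not called (log2 fold change −0.42, edgeR adjusted p = 0.149).

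On NCBIM37 (mm9), 5 of the chosen genes were on chromosome 5 (17.2%, against 6.74% of eligible genes), 5 on chromosome 11 (17.2% against 8.79%) and 4 on chromosome 2 (13.8% against 8.16%). Chromosomes 10, 12, 14, 15 and 16 held 0 of them, and 0 had another chosen gene within 100 kb. The nearest pair was Ppp1r9a at chr6:4853004-5115661 and Slc25a13 at chr6:5991219-6167173, which are 875557 bp apart. Between them lie 6 protein-coding genes, of which Pon3 and Pon2 were eligible, with ratios from 0.197 to 0.570. Among the genes called between malignant and wild-type cells, besides Ppp1r9a, are Nme4 at chr17:26228679-26232453, Mex3a at chr3:88336317-88345318, Serf1 at chr13:100877952-100884526 and Klhl23 at chr2:69660001-69674708. The library kit does not mark the strand, and 8 chosen genes overlap another gene that had reads in premalignant cells. Fhod3 overlaps 5730494M16Rik on the other strand, which was at 21.2 and 17.6 CPM in wild type, 21.6 and 22.1 in premalignant and 14.1 and 25.3 in malignant libraries. Syce2 overlaps Gcdh, at 26.03 and 29.5 CPM, then 31.0 and 29.5, then 21.6 and 21.8. Lrfn4 overlaps Pcx, at 6.33 and 7.35 CPM, then 7.13 and 9.09, then 7.57 and 4.10. Both neighbours lie on the other strand, so that the values of Fhod3, Syce2 and Lrfn4 are uncertain. The genes that overlap Ell3, Plcd3, Ranbp17, Tanc2 and 2410018M08Rik were each at most 1.07 CPM in the premalignant libraries.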

How the data were processed

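Polyadenylated RNA of pre-B cells was sequenced for each stage in 2 biological replicates (50-bp single-end reads). Alignment was with TopHat and counting per gene with HTSeq, and the authors deposited raw counts that are not normalized. The labels name mm9, CASAVA 1.8.2, Bowtie, HTSeq and DESeq, and the HTSeq options are not given in the sources used here. The deposited DEseq tables hold the authors' own comparisons and were not used. CPM is a count over the total of all genes, and RPKM is CPM per kilobase of exon. Gene types, lengths and positions come from GENCODE vM1 (NCBIM37), which gave no symbol for 786 of 37991 genes.

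Malignant and wild-type cells were compared with edgeR 4.0.16 (R 4.3.3): TMM, filterByExpr, quasi-likelihood test and Benjamini-Hochberg adjustment over 16683 genes, with 6 libraries in 1 fit. A call needed an adjusted p not above 0.1 and a log2 fold change of 0.5 or more in size, as in the study's methods. The fits were tested on simulated data, where DESeq2 made many more calls of unchanged genes than edgeR. The simulation took its spread from edgeR and changed 200 genes in the malignant libraries, whereas 49.2% of genes were called in the data. It therefore cannot show which calls of DESeq2 are false here, and DESeq2 serves as an alternative only. Alternatives were upper-quartile and total-count scaling, DESeq2 1.42.0, other filters and thresholds, only the 2 stages compared, the replicate number as a block and leaving out each library. The 2 replicates a stage make every p-value rest on few samples, and TMM takes most genes as unchanged.

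The chosen genes, the lists of functions, markers, name families and motifs and the rule for naming genes were written with earlier results of these data known. That rule took the 25 genes with the highest ratio, the highest levels, the called genes, those next to the limit and members of lists or families, and here all 29 genes were given. The paralogs, the total-count scaling and the leave-one-out of the calls in both premalignant contrasts were added after values had been seen. Promoter windows come from RefSeq on GRCm38.p6 and were matched by symbol.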

Additional observations from a re-analysis of the deposited data

How the results depend on the processing

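The number of chosen genes depended on the rule. It was 8 with a ratio of at least 2, 93 with a limit midway between 1 and 1.5, 14 with at least 5 CPM and 39 to 75 when 1 library was left out, while 37 were chosen over TMM-normalized library sizes and 38 over DESeq2 size factors, with 27 of the 29 genes shared in both cases (Lrfn4 and Mcoln3 were lost). With a ratio of at least 2, 1198 genes peaked in wild-type and 144 in malignant cells, and with the limit midway between 1 and 1.5 there were 502 in malignant cells. Between malignant and wild-type cells 10 of the 29 genes were called, where 49.2% of all genes tested were. The set had 4 calls in a fit of only these stages (3 higher, 1 lower), where 43.8% of all genes were called. It had 6 at an FDR of 0.05 (2 lower), where 42.5% of all genes were called. Without a filter on low counts 11 of the set were called lower, where 33.6% of all genes were called in either direction. With total counts 2 were called higher, where 49.9% were called in either direction. Calls in the set also changed when 1 library was left out. Both premalignant contrasts, which the rule had used, were met by 7 genes, by 19 with DESeq2, which made many false calls in simulated data, and by 0 to 24 without 1 library. Where a library was left out, the lone library of its stage was assumed to vary like the other stages. The cause of these shifts was not tested.

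Of 428 log2 fold changes of the 29 genes under 15 settings, 349 kept direction and call, 45 lost the call, 21 gained one and 13 changed sign. The sign changes were of genes not called. Total counts gave −0.012 for 2410018M08Rik, −0.060 for Nek8, −0.11 for Syce2 and −0.22 for Ehbp1, whose value was also −0.095 with upper-quartile scaling and −0.020 with at least 10 counts in every library. Upper-quartile scaling moved the median of all genes to −0.186. When 1 library was left out, the values ranged from −1.43 to 0.46 for Nat8l, from −0.15 to 0.48 for Syce2, from −2.82 to 0.15 for Ell3, from −0.62 to 0.16 for Lmbr1 and from −0.38 to 1.07 for Mcoln3, with the extremes without a malignant library. At least 10 counts in every library left 22 of the 29 genes to test.

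The replicate numbers did not pair the libraries by the labels, and with 2 numbers the correlations of deviations, 0.509 between wild-type and premalignant, 0.186 between wild-type and malignant and 0.257 between premalignant and malignant libraries, are only a hint. With the replicate number as a block, 11 genes were called, 5 higher and 6 lower, with Prdm16 in addition at −2.66 (edgeR adjusted p = 0.0976), and 9 met both premalignant contrasts. At levels near 2 CPM, depth limits how well a ratio of 1.5 is known.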
